A study of Rattus norvegicus with 18 samples.

Results

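The injury effect in the motor cortex of male rats at day 30 after spinal cord injury was set against the effect at day 7. The effect at day 30 was the log2 fold change of the In libraries over the S libraries, and the effect at day 7 was that of the inj libraries over the Sham libraries. Their difference is the day 30 effect minus the day 7 effect, so that a negative difference marks a gene whose effect was lower at day 30. The genes compared were those in both deposited tables, less 404 with no count in any of the day 30 libraries. That left 11993 genes, of 31038 in the day 30 table and 12560 in the day 7 table, and 11396 of them had enough counts to be tested. The study measured 18 libraries, and 12 of them enter the comparison, 3 in each of 4 groups: male In and male S at day 30, and male inj and male Sham at day 7. The other libraries are from females at day 30 and stand beside the male values as a description. The labels name the tissue, sex, day and sample names. They give no strain, age or kind of injury, and spell out neither In nor S, so these names are kept. The series describes the material as primary neurons enriched from motor cortex, yet genes of vessels, microglia, astrocytes and myelin were counted in all groups. No source says that the libraries of a group come from separate animals, and Sham 1 and Sham 1-RNA share a number, so a p-value here measures only the spread between libraries.

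Spinal cord injury cuts or damages the axons that corticospinal neurons, the large layer 5 pyramidal cells of motor cortex, send to the cord. The cortex itself is not wounded, but its cells can respond at a distance. Microglia are the resident macrophages of the brain and carry complement and lysosomal genes. Endothelial cells and the pericytes around them form the blood-brain barrier. Immediate early genes are transcribed within minutes of neuronal activity or stress, and many are switched on by factors that bind the cyclic AMP response element in their promoters. SR-type splicing regulators control which exons are kept in a messenger RNA.

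Depth differed most between the groups at day 7. The In libraries held 14532252 to 17401128 counts and the S libraries 14927700 to 27849794, while inj held 14650528 to 17013273 and Sham 2683105 to 3014083. The 13 mitochondrially encoded genes, which the day 7 table does not list, took 53.7 to 60.3% of the male day 30 counts, so the compared genes held 36.2 to 42.3% of the counts in In and 36.1 to 41.7% in S, against 96.5 to 96.7% in inj and 96.3 to 96.9% in Sham. Levels are given as CPM, the count of a gene scaled to a common total over the compared genes, and 3 counts correspond to 1.18 to 1.31 CPM in Sham and to at most 0.552 CPM in any other library. Of the 404 genes with no day 30 count, 184 had a mean of 100 or more counts at day 7, among them Fth1, Tuba1b, Palm and Myh11, so these were listed at 0 at day 30 and cannot be compared. Myelin markers stood apart in In 1 and in Sham 1-RNA. Their summed level was 19800 CPM in In 1, against up to 147000 CPM in the other In libraries, and 77700 CPM in Sham 1-RNA, against up to 224000 CPM in the other Sham libraries. Some counts that rest on these libraries are therefore also given without them.

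The estimated effect was small at day 30 where it had been large at day 7. At day 7 every inj library was deeper than every Sham library, so injury and other features of these libraries cannot be told apart there. The part of such features in the day 7 effect was not tested. The difference passed the test, at an adjusted p below 0.05, for 1522 of the 11396 genes (13.4%). It was positive for 617 (5.41%) and negative for 905 (7.94%). At day 7, 1556 genes rose (13.7%) and 1575 fell (13.8%), 3131 in all (27.5%). The number that fell was 813 without Sham 1, 848 without Sham 3 and 961 without inj 2, and with library totals as the scale 2686 rose and 667 fell. At day 30 no gene passed (0%) by edgeR. There, 1032 genes had an unadjusted p below 0.05 (634 without In 1 and 648 without S 2), the smallest adjusted p was 0.487, and DESeq2 called 12 genes, 1 of them higher. The middle 50% of the effects spanned 0.45 log2 units at day 30 and 0.88 at day 7. The median standard errors were 0.24 and 0.26. The 4 groups shared a single estimate of the spread in the fit, so alike errors were largely set in advance. More than 2-fold effects were estimated for 505 genes (4.43%) at day 30 and for 2350 (20.6%) at day 7. Without In 1 and Sham 1-RNA the difference passed for 1200 genes with a positive and 1192 with a negative sign. The positive count depended on single libraries. It was 328 without Sham 1, 355 without Sham 3, 356 without inj 2, 360 without In 3, 373 without inj 3 and 965 without In 1. With library totals as the scale the median of all differences was -0.27, in place of 0.07, and the difference passed for 263 genes with a positive and 1583 with a negative sign, so that 14.2% of the calls were positive in place of 40.5%. That share was 28.4 to 29.7% without In 2, In 3, S 4, Sham 1 or Sham 3.

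**Figure D1:**
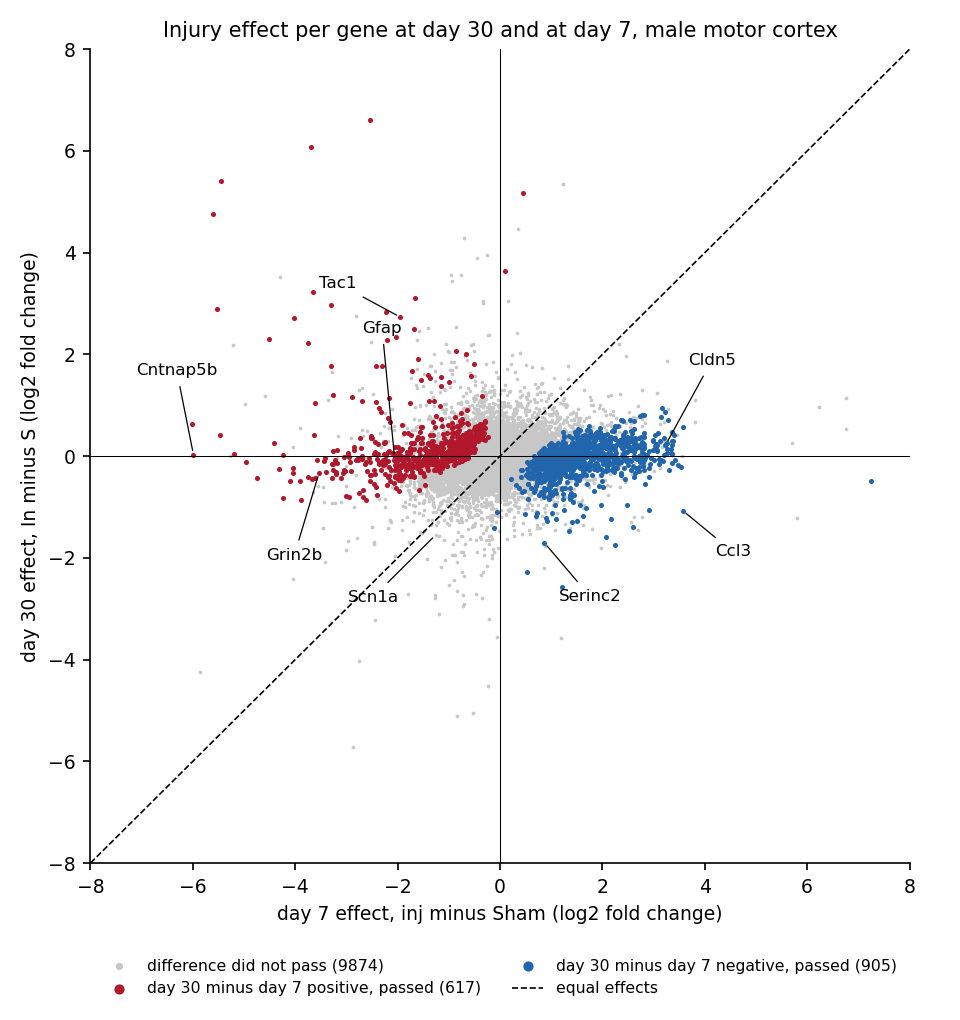
Effect of injury per gene at day 30 (In minus S, vertical axis) against day 7 (inj minus Sham, horizontal axis), both as log2 fold changes, for the 11396 genes tested, with the 617 positive and 905 negative differences that passed in colour. Of the 1522 coloured genes, 1303 lie within 0.5 of 0 at day 30 and 1446 have the smaller estimate at day 30, so most lie along the horizontal axis rather than along the dashed line of equal effects.

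Genes that had moved at day 7 lay near 0 at day 30. The 1556 genes that rose at day 7 had a median effect of 0.07 at day 30 and 1.21 at day 7, and for 866 of them (55.7%) the difference passed. Their day 7 estimate lay above the 95% interval of the day 30 effect in 1463 cases (94.0%). That count ignores the error of the day 7 estimate, by which these genes were chosen. The 1575 genes that fell had a median of -0.12 at day 30 and -0.997 at day 7, with a passing difference in 552 (35.0%). The day 30 estimate kept the day 7 sign in 926 (59.5%) of those that rose and in 1055 (67.0%) of those that fell, while 49.7% of all genes tested were positive at day 30. Rises of at least 4-fold, seen in 306 genes, went with a median of 0.17 at day 30 and 2.46 at day 7. Falls of at least 4-fold, in 203 genes, went with -0.11 and -2.70. Across the 11396 genes the 2 effects had a Pearson r of 0.08 and a Spearman rho of 0.15, as a description over genes that are not independent replicates. Of the 1522 genes with a passing difference, 1418 had passed at day 7, 1446 (95%) had the smaller estimate at day 30, and 1303 (85.6%) had a day 30 estimate within 0.5 of 0. These genes were selected by the difference, which holds both estimates. The middle 50% of all day 30 effects lay between -0.23 and 0.22, so these counts are partly built in.

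The 4 group levels of these genes are given as a description only. Levels set across the days come from tables that were made separately. The genes were also selected by a contrast that holds these libraries, so a Sham or inj mean at an extreme is partly built in. Of the 905 genes with a negative difference, the Sham mean was the lowest of the 4 group means in 830 (91.7%), against 32.0% of all genes tested, and the inj mean was the highest in 554 (61.2%), against 20.1%. Of the 617 with a positive difference, the Sham mean was the highest in 507 (82.2%), against 35.9% of all genes, and the inj mean the lowest in 282 (45.7%), against 24.5%. The inj mean was nearer than the Sham mean to the average of the day 30 groups in 729 of the 905 (80.6%) and in 460 of the 617 (74.6%), against 64.7% of all genes tested. Over all genes the Spearman rho of the mean levels was 0.984 between In and S, 0.930 between inj and S, 0.881 between Sham and S, and 0.924 between inj and Sham. The Sham libraries were also the shallowest, and with all libraries thinned to the depth of the shallowest the difference passed for 564 genes with a positive and 814 with a negative sign.

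**Figure D2:**
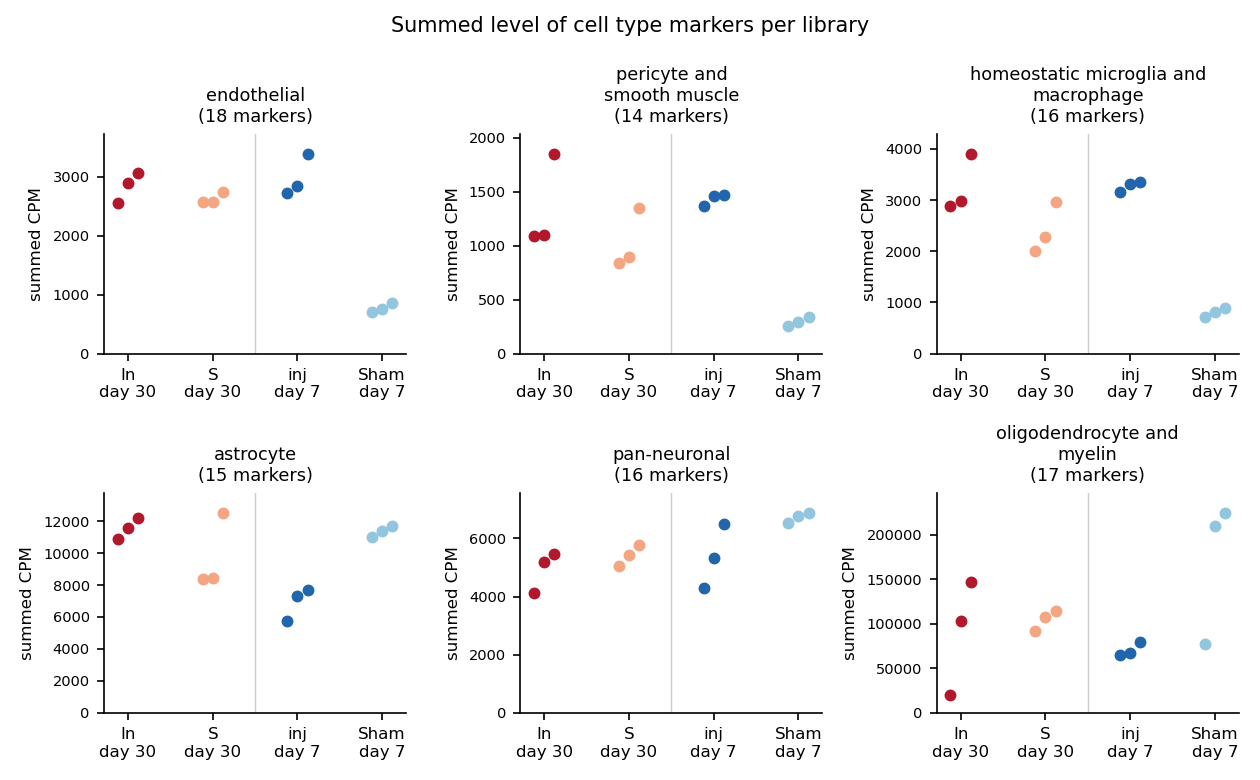
Summed CPM of the tested markers of 6 cell types in each of the 3 libraries per group (points, sorted by level within a group), for In and S at day 30 and inj and Sham at day 7. Endothelial, pericyte and microglial sums are lowest in Sham. The endothelial sums are similar in the other groups, while the pericyte and microglial sums are higher in inj than in S. The pan-neuronal sum is highest in Sham, and the myelin sum is low in 1 In and 1 Sham library.

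Vessel genes led the negative differences. Of 18 tested endothelial markers, 15 had a passing negative difference and none a positive one (83.3%, against 13.4% of all genes), with a median effect of 0.01 at day 30 and 2.54 at day 7. Of 14 markers of pericytes and smooth muscle, 12 passed in the same direction, with medians of 0.27 at day 30 and 2.53 at day 7. Summed endothelial markers stood at 2550 to 3060 CPM in In and 2580 to 2740 in S, and at 2720 to 3390 in inj and 705 to 863 in Sham. Without In 1 and Sham 1-RNA, 16 endothelial markers were negative and 1 was positive, and all 14 pericyte markers were negative, with a pericyte median of 0.03 at day 30. The motif CCGGAAGT, bound by ETS factors and searched on both strands, was in none of the 11 endothelial markers with a promoter window, against 7.87% of tested genes with a window and 4.01% of all windows. Its core GGAAG, which lies within the longer motif, was in 9 of the 11 (81.8%), against 74.6% and 70.1%. In bulk RNA, a change in the number of such cells in the material, which the series describes as enriched for neurons, cannot be told apart from a change in RNA per cell.

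Cldn5, which encodes the main tight junction protein of brain endothelium, had 831, 825 and 849 CPM in In, against 679.7, 716 and 741 CPM in S. At day 7 it had 664, 550.0 and 714 CPM in inj, against 65.4, 67.2 and 71.4 CPM in Sham. The In libraries lay just above the S libraries, and the inj libraries far above all Sham libraries, which were the lowest of the 4 groups. The effect was 0.23 ± 0.14 at day 30 and 3.24 ± 0.16 at day 7 (log2 ± SE, 3 libraries a group), and the difference of -3.01 ± 0.21 passed (adjusted p = 2.87e-06). Bcam, a laminin-binding adhesion molecule, had 188, 144 and 168 CPM in In, against 148, 159.6 and 152 CPM in S. Its day 7 levels were 171, 155 and 176 CPM in inj, against 19.6, 19.3 and 21.5 CPM in Sham. In and S overlapped, whereas inj and Sham did not, and the effects of 0.12 ± 0.14 at day 30 and 3.06 ± 0.16 at day 7 gave an adjusted p of 2.97e-06 for the difference. Slc7a5, the large neutral amino acid transporter of the barrier, had 119, 131 and 130.4 CPM in In, against 145, 126 and 128 CPM in S. It had 196, 192 and 211 CPM in inj, against 17.0, 29.5 and 27.7 CPM in Sham at day 7. Here too the day 30 groups overlapped, and the inj libraries were several-fold above Sham (-0.07 ± 0.17 at day 30 and 3.01 ± 0.19 at day 7, adjusted p = 8.96e-06).

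**Figure D3:**
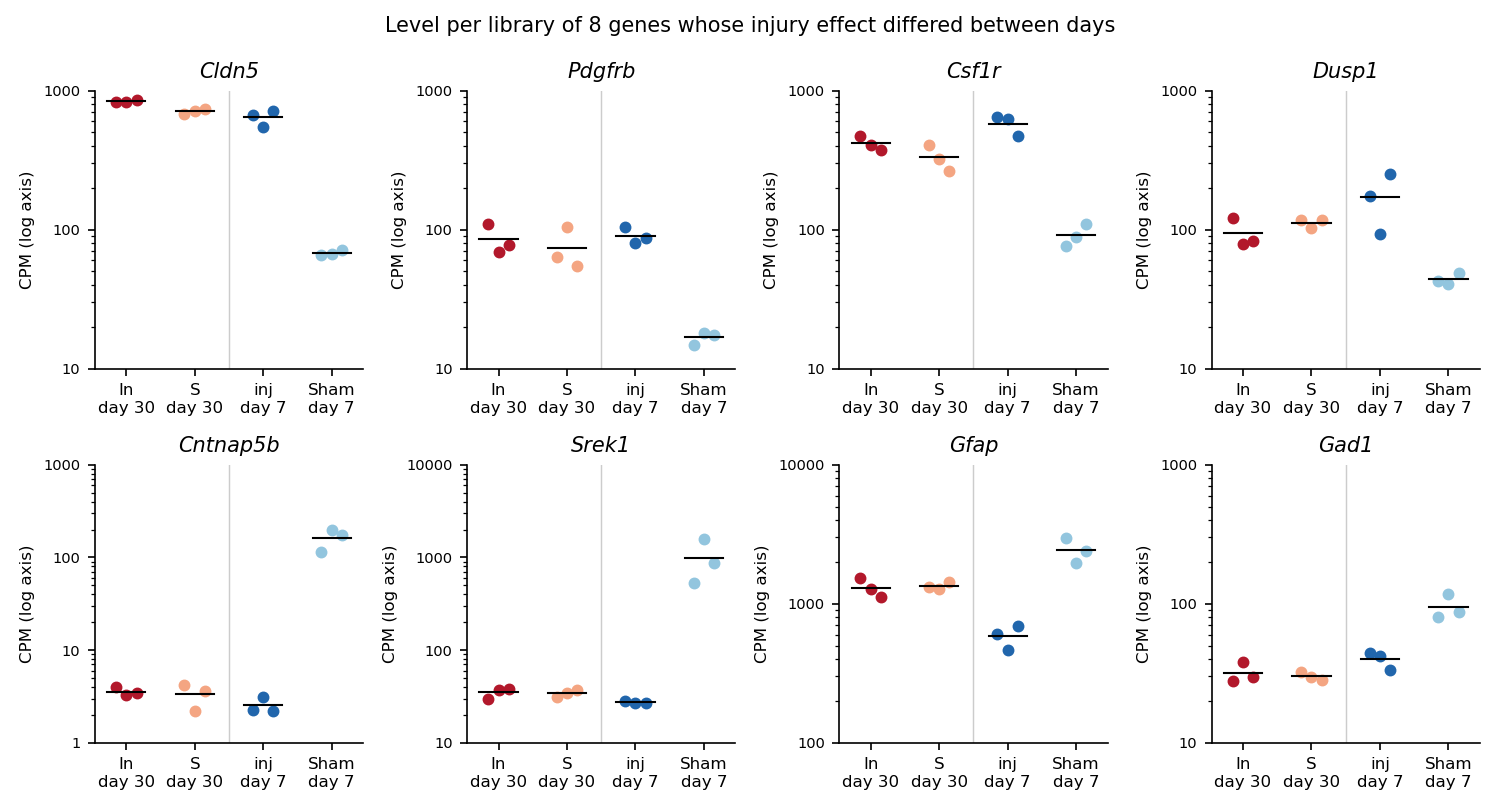
CPM per library (points, log axis) with group means (bars) for 8 genes in 3 libraries a group, with In and S of day 30 left of the grey line and inj and Sham of day 7 right of it. In each gene In and S lie close together, while Sham is below inj for Cldn5, Pdgfrb, Csf1r and Dusp1 and above it for Cntnap5b, Srek1, Gfap and Gad1.

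The other leading vessel genes followed the same course. Pecam1, an endothelial adhesion molecule, stood at -0.06 ± 0.17 at day 30 and 3.10 ± 0.21 at day 7. Flt1, a receptor for vascular endothelial growth factor, stood at -0.04 ± 0.18 and 2.84 ± 0.20, and the angiopoietin-family receptor gene Tie1 at 0.01 ± 0.17 and 2.62 ± 0.19. Itm2a, Podxl (podocalyxin), Esam (an endothelial adhesion molecule) and Vwa1 had day 30 effects between -0.29 and 0.22 and day 7 effects between 2.71 and 3.26. The last of the 12 negative differences with the smallest p were those of Ahnak, a large scaffold protein (day 30 -0.10 ± 0.16, day 7 2.22 ± 0.18), and Lsr, a protein of tricellular junctions (day 30 -0.28 ± 0.16, day 7 2.20 ± 0.19). In all 12 genes the inj and Sham libraries did not overlap, and In and S overlapped in all but Cldn5. The 12 were chosen by the p of the difference from these same libraries, so the overlaps describe them and add no support.

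Mural cell and barrier genes were alike. Pdgfrb, the receptor that recruits pericytes to vessels, had 109, 68.5 and 77.7 CPM in In, against 63.4, 104 and 54.5 CPM in S. At day 7 the libraries had 104, 80.3 and 86.8 CPM in inj, against 14.8, 18.1 and 17.3 CPM in Sham. S 2 lay among the In libraries, and the Sham libraries were far below all others, with effects of 0.20 ± 0.23 at day 30 and 2.43 ± 0.26 at day 7 (difference adjusted p = 0.000789). Rgs5, a regulator of G protein signalling in pericytes, stood at 0.00 ± 0.19 at day 30 and 2.43 ± 0.21 at day 7. Notch3, the Notch receptor of mural cells, stood at -0.04 ± 0.28 and 2.95 ± 0.33, and Cspg4, the NG2 proteoglycan of pericytes and of oligodendrocyte precursors, at -0.09 ± 0.20 and 2.26 ± 0.23. Of 13 transporters of the blood-brain barrier, 11 had a passing negative difference, with medians of 0.02 at day 30 and 1.61 at day 7. Among them were Slc2a1, the glucose transporter (0.16 ± 0.20 at day 30, 2.81 ± 0.22 at day 7), and Abcb1a, the P-glycoprotein efflux pump (-0.17 ± 0.23 and 2.50 ± 0.25). Of 12 collagen, laminin and matrix genes, 7 passed, all negative, among them Col4a1 of the vascular basement membrane (-0.22 ± 0.18 and 2.20 ± 0.20) and Fn1, fibronectin (0.17 ± 0.18 and 2.21 ± 0.19). These 3 groups share their direction with the sums of endothelial and pericyte markers given above, whose part in the result was not tested.

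Microglial, complement and lysosomal genes had a smaller effect at day 30 than at day 7, and their day 30 medians were slightly above 0, less so without In 1 and Sham 1-RNA. Of 16 markers of microglia and macrophages, 10 had a passing negative difference, with medians of 0.32 at day 30 and 2.01 at day 7. The day 30 estimate was positive in 15 of the 16, none of which passed there, against 49.7% of all genes. The day 30 median was 0.17 without In 1 and Sham 1-RNA. Csf1r, the receptor on which microglia depend for survival, had 469, 407 and 376 CPM in In, against 406, 321 and 264 CPM in S. At day 7 it had 640.3, 621 and 469 CPM in inj, against 76.7, 87.6 and 109 CPM in Sham. The day 30 groups overlapped, and inj lay above Sham in every library, with effects of 0.34 ± 0.19 and 2.66 ± 0.21 and an adjusted p of 0.000106 for the difference. Selplg, a selectin ligand, stood at -0.07 ± 0.22 at day 30 and 2.81 ± 0.25 at day 7, and Tmem119, a marker of resident microglia, at 0.06 ± 0.31 and 3.26 ± 0.38. Aif1, which encodes the microglial protein Iba1, passed in no comparison. It had 327, 140.3 and 135 CPM in In, against 174, 103 and 117 CPM in S, and 87.3, 87.0 and 111 CPM in inj, against 133, 118 and 112 CPM in Sham. In overlapped S, and the inj libraries were all narrowly below the Sham libraries, with effects of 0.60 ± 0.29 and -0.35 ± 0.30 that passed at neither day and a difference of 0.96 ± 0.42 (adjusted p = 0.152). The summed microglial markers stood at 2890 to 3900 CPM in In and 2010 to 2960 in S, and at 3150 to 3360 in inj and 711 to 896 in Sham.

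Complement genes had the same direction as the microglial markers. Of 25 complement and antigen presentation genes, 10 had a passing negative difference (15 without In 1 and Sham 1-RNA), with medians of 0.41 at day 30 and 1.56 at day 7. Without these libraries the day 30 median was 0.08 and the median difference -1.99, in place of -0.86. C1qa, a chain of the first complement component, had 737, 502 and 526 CPM in In, against 589.8, 370.2 and 366 CPM in S. The day 7 libraries had 430.1, 399 and 533 CPM in inj, against 69.7, 91.9 and 97.0 CPM in Sham. The In and S ranges overlapped, and the inj libraries were all several-fold above Sham (0.41 ± 0.22 at day 30, 2.40 ± 0.24 at day 7, adjusted p = 0.000899). Its partner C1qb stood at 0.30 ± 0.24 and 2.52 ± 0.26. Of 13 genes of disease-associated microglia, 6 passed, all negative, among them Ctsd, a lysosomal protease (0.15 ± 0.17 at day 30 and 1.83 ± 0.17 at day 7), and Trem2, a lipid receptor of microglia. Trem2 stood at 0.58 ± 0.22 at day 30, where In lay above S in every library, and at 2.24 ± 0.25 at day 7. Apoe, a lipid carrier made by astrocytes and microglia, had alike estimates at both days. It had 10971, 5540 and 5686 CPM in In, against 3834, 3574 and 5024 CPM in S, and 4569, 3446 and 5208 CPM in inj, against 2269, 2941 and 2801 CPM in Sham. In lay above S and inj above Sham in every library, with effects of 0.84 ± 0.27 and 0.72 ± 0.27, neither passing, and a difference of 0.11 ± 0.37 (adjusted p = 0.872) whose sign turned without In 1 (-0.29).

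Lysosomal genes shared this direction. Of 30 tested, 18 had a passing negative difference and none a positive one, with medians of 0.19 at day 30 and 1.22 at day 7. They included Ctsz, a carboxypeptidase (0.01 ± 0.24 at day 30, 2.23 ± 0.27 at day 7), and Grn, progranulin (0.36 ± 0.23 and 2.25 ± 0.25). Of 16 cytokine and NF-kappaB genes, 7 passed, all negative, and 4 without S 1. The first was Tlr2, a sensor of bacterial lipids and danger signals (0.22 ± 0.20 at day 30 and 2.16 ± 0.24 at day 7). Ccl3, a chemokine of activated microglia, had 76, 45 and 71 counts in In, against 425, 99 and 68 in S, and 116, 77 and 251 counts in inj, against 0, 1 and 4 in the shallower Sham libraries. Its fitted effects were -1.07 ± 0.48 at day 30 and 3.57 ± 0.83 at day 7, and the day 7 value rests on the 5 Sham counts. None of 20 interferon response genes passed by edgeR at an adjusted p below 0.05, with medians of 0.05 and 0.67, although 4 did without S 4, 2 without In 3 and 1 without In 1, S 2, Sham 1 or Sham 1-RNA.

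Of 22 tested immediate early genes, 9 rose at day 7, as 13.7% of all genes did. None passed at day 30, where no gene of all those tested did. Of the 22, 7 had a passing negative difference (31.8%, against 13.4% of all genes in either direction). The medians were 0.00 at day 30 and 0.89 at day 7, and the day 7 estimate was positive in 20, against 44.1% of all genes. Leaving out In 1 and Sham 1-RNA gave a day 30 median of -0.21. Dusp1, a phosphatase that switches off MAP kinases, and Ier2, an immediate early nuclear protein, had the smallest p. The cyclic AMP response element TGACGTCA, which is its own reverse complement, was searched for in the promoter windows from 250 bases before to 50 bases after the gene start. It was found in 4 of the 16 listed genes with a window (25%), namely Jund, Ier2, Dusp1 and Btg2, against 288 of 8880 tested genes with a window (3.24%) and 525 of 27457 windows in all (1.91%). Of the 4 windows of genes with a passing difference, 3 held it. The windows of Ier2 (chr19:40399123-40399422, plus strand, element starting 66 bases before the gene start) and Dusp1 (chr10:17184603-17184902, plus strand, 124 bases before) are shown because they belong to the leading genes of this group. They are from RefSeq, build GRCr8, 5′ to 3′, with the element in capitals. A match describes the letters of the window and shows no binding.
Ier2: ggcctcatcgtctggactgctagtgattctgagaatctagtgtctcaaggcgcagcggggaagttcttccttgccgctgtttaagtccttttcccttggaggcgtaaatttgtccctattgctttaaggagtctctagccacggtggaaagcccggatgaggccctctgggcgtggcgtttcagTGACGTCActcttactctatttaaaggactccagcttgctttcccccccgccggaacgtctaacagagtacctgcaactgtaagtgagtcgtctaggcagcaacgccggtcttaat
Dusp1: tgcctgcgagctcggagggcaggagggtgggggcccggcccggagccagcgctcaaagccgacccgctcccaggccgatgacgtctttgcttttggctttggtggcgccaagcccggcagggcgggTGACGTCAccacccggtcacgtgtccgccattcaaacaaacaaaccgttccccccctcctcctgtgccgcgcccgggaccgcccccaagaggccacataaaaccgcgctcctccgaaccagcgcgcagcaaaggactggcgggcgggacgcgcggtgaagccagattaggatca

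Dusp1 had 121, 79.3 and 82.3 CPM in In, against 116, 102 and 116 CPM in S. Its day 7 levels were 174, 92.4 and 252 CPM in inj, against 42.7, 40.5 and 48.7 CPM in Sham. The In and S libraries overlapped, and each inj library lay above the Sham libraries, with effects of -0.25 ± 0.27 and 1.97 ± 0.29 (difference adjusted p = 0.00208). Ier2 had 91.0, 60.6 and 60.002 CPM in In, against 65.4, 66.8 and 49.6 CPM in S, and 69.6, 50.7 and 87.8 CPM in inj, against 23.5, 16.5 and 19.4 CPM in Sham, again with overlap at day 30 and none at day 7 (0.22 ± 0.22 and 1.81 ± 0.25, adjusted p = 0.00588). Junb, a subunit of the AP-1 transcription factor, had 265, 158 and 151 CPM in In, against 210.4, 174 and 153 CPM in S. At day 7 it had 196, 150.3 and 303 CPM in inj, against 67.6, 86.8 and 76.8 CPM in Sham. The spread within In and within inj was wide, the effects were 0.09 ± 0.26 and 1.49 ± 0.27, and the difference of -1.40 ± 0.37 (adjusted p = 0.0215) did not pass without S 1 (0.0557) or without inj 4 (0.0511). Fos, the best known of these genes and another AP-1 subunit, had 90.1, 42.7 and 49.8 CPM in In, against 83.7, 77.1 and 39.3 CPM in S. Its day 7 levels were 71.1, 62.6 and 122 CPM in inj, against 30.1, 36.5 and 30.1 CPM in Sham. In and S overlapped widely, and inj lay above Sham in every library, with effects of -0.14 ± 0.32 and 1.40 ± 0.35. The difference of -1.54 ± 0.47 passed narrowly (adjusted p = 0.045) and did not pass without any 1 of In 2, In 3, S 1, S 2, inj 2, inj 4, Sham 1, Sham 1-RNA or Sham 3, at adjusted p values up to 0.105.

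The positive differences with the smallest p belonged to genes that fell at day 7 and had estimates near 0 at day 30, among them several regulators of splicing. Of 44 tested splicing regulators, 16 had a passing positive difference and 1 a negative one (38.6%, against 13.4% of all genes), with medians of 0.03 at day 30 and -0.53 at day 7. Without In 1 and Sham 1-RNA these counts were 21 and 1. With library totals as the scale the day 7 median was -0.17 and the median difference 0.14, in place of 0.48. Srek1, an SR-related splicing protein, had 29.9, 37.1 and 38.2 CPM in In, against 31.5, 34.2 and 37.1 CPM in S. At day 7 it had 27.9, 26.8 and 27.2 CPM in inj, against 527, 1590 and 866 CPM in Sham. In and S were alike, and the 3 Sham libraries lay far above all others while differing among themselves, with effects of 0.04 ± 0.29 at day 30 and -5.19 ± 0.33 at day 7 (difference adjusted p = 8.96e-06). Srsf11, an SR protein of the spliceosome, had 77.8, 90.6 and 94.9 CPM in In, against 89.8, 67.7 and 62.7 CPM in S. The day 7 levels were 112, 109 and 121 CPM in inj, against 1428, 3595 and 2285 CPM in Sham. Sham 1-RNA was the highest of the Sham libraries in both genes, and the effects of Srsf11 were 0.25 ± 0.26 and -4.42 ± 0.29 (adjusted p = 8.96e-06). Luc7l3, a protein of the U1 small nuclear ribonucleoprotein, stood at -0.11 ± 0.29 at day 30 and -4.97 ± 0.34 at day 7, and the splicing regulator Rbm25 at 0.02 ± 0.28 and -4.24 ± 0.31.

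Cntnap5b, a member of the contactin-associated protein family of neuronal adhesion molecules, led the positive differences. It had 4.04, 3.25 and 3.41 CPM in In, against 4.21, 2.21 and 3.62 CPM in S. At day 7 it had 2.25, 3.13 and 2.20 CPM in inj, against 115, 196 and 173 CPM in Sham. In, S and inj were close to each other, and Sham lay far above them, with effects of 0.03 ± 0.31 and -5.99 ± 0.27 and a difference of 6.02 ± 0.40 (adjusted p = 2.87e-06). No other of the 10 tested contactins and contactin-associated proteins had a passing difference, except in the fit without S 2, where 1 more did, and in that without In 1 and Sham 1-RNA together, likewise 1 more. The remaining genes among the 12 positive differences with the smallest p were Dync1i2, an intermediate chain of the dynein motor (0.12 ± 0.18 at day 30, -2.85 ± 0.19 at day 7), Ppp1r12a, a targeting subunit of myosin phosphatase (-0.07 ± 0.23, -3.58 ± 0.25), and Taf1d, a subunit of the RNA polymerase I selectivity factor (0.41 ± 0.41, -5.47 ± 0.42). Fam133b, Baz2b, Phf20l1 and Ccar1 had day 30 effects between -0.08 and 0.11 and day 7 effects between -3.27 and -2.76. In all 12, In and S overlapped and inj lay below Sham in every library, which again describes genes chosen from these same libraries. The genes with a positive difference spanned a median of 32.3 kb of the genome, those with a negative difference 27.2 kb and all genes tested 25.2 kb, from a RefSeq table that gave a span for at least 95.3% of each set.

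**Figure D4:**
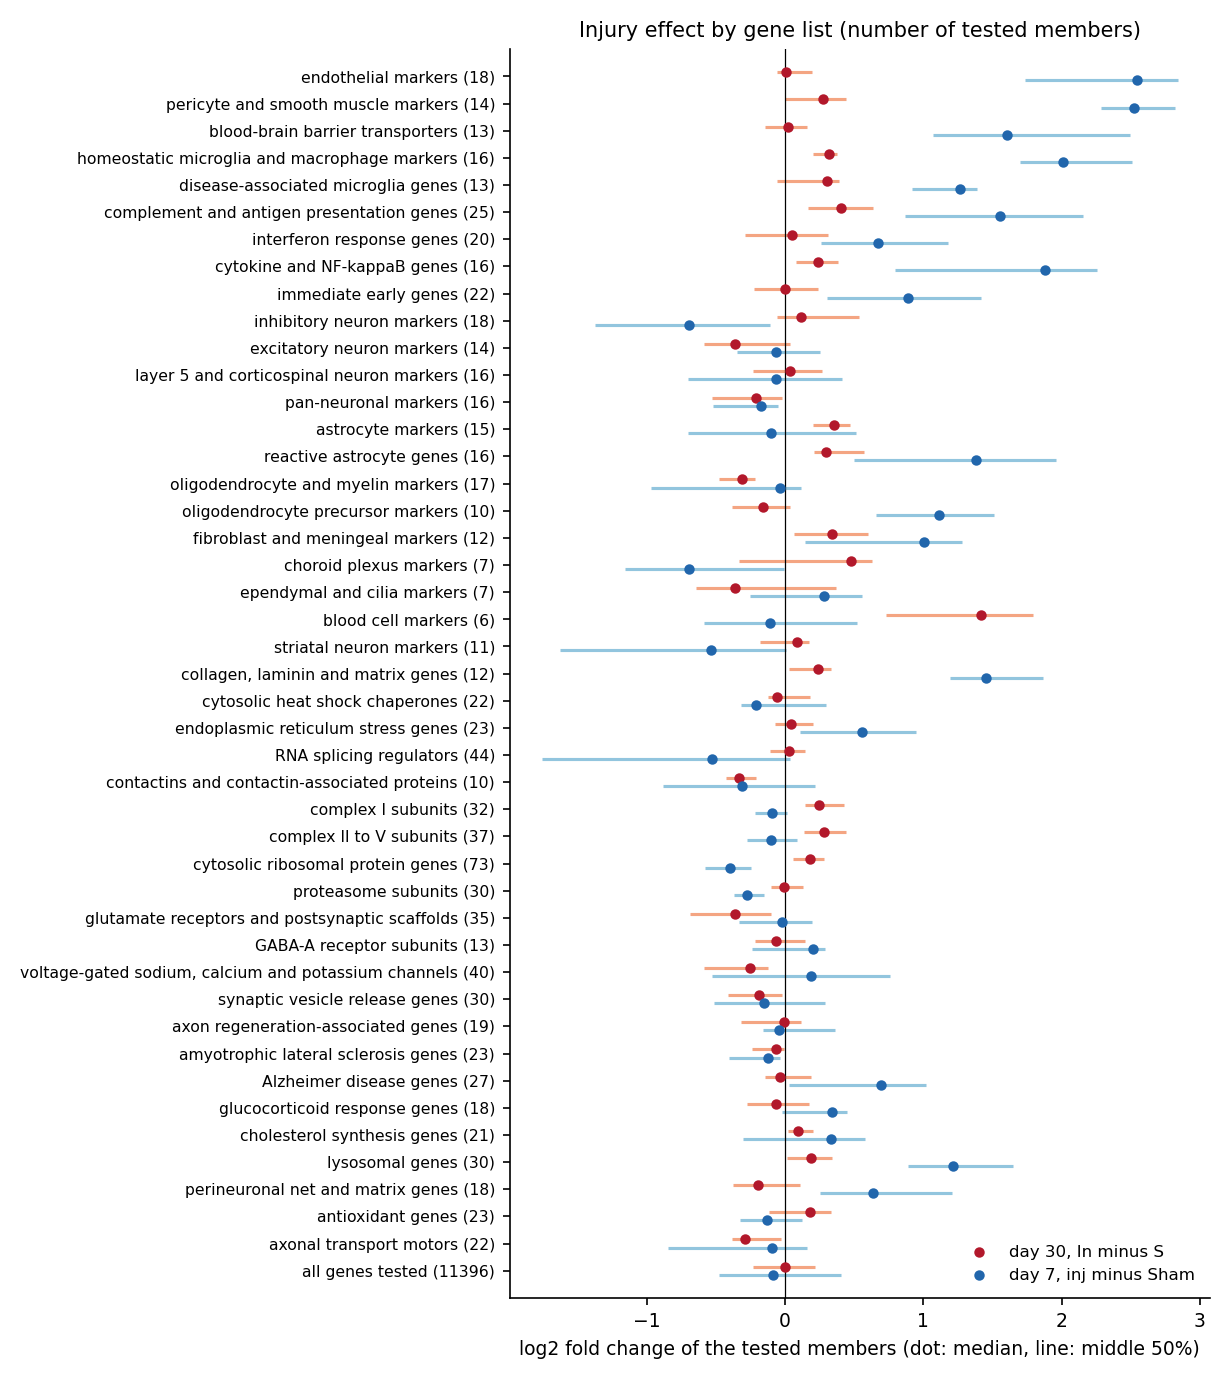
Median effect (dots) and middle 50% (lines) of the tested members of 44 gene lists and of all genes tested, at day 30 (In minus S) and at day 7 (inj minus Sham), as log2 fold changes. Vessel, microglial and lysosomal lists have medians well above 0 at day 7 and lower ones at day 30. Their day 30 medians include 0.01 for endothelial, 0.27 for pericyte, 0.32 for microglial and 0.19 for lysosomal genes. The medians of the splicing and inhibitory neuron lists lie below 0 at day 7.

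Neuronal genes were split. Of 18 inhibitory neuron markers, 6 had a passing positive difference and 1 a negative one (38.9%, against 13.4% of all genes). Their medians were 0.12 at day 30 and -0.70 at day 7. Gad1, which makes the transmitter GABA, had 27.8, 37.96 and 29.8 CPM in In, against 32.3, 29.6 and 28.1 CPM in S. At day 7 it had 44.0, 42.2 and 33.6 CPM in inj, against 79.8, 118 and 86.7 CPM in Sham. Every inj library lay below Sham, and In overlapped S (0.08 ± 0.19 at day 30, -1.25 ± 0.19 at day 7, adjusted p = 0.00408). The interneuron peptide gene Sst, somatostatin, stood at 0.61 ± 0.22 at day 30, where every In library lay above every S library, and at -1.02 ± 0.23 at day 7. Vip, another interneuron peptide, had 9, 65 and 48 counts in In, against 53, 7 and 17 in S, with effects of 1.04 ± 0.49 and -1.75 ± 0.45. The inhibitory markers summed to 871 to 985 CPM in In and 844 to 933 in S, and to 793 to 824 in inj and 698 to 848 in Sham, so the sum did not set Sham apart. Excitatory neuron markers had 1 positive and 2 negative calls among 14 (21.4%, against 13.4% of all genes). Slc17a7, the vesicular glutamate transporter of cortical pyramidal cells, had 147, 344 and 256 CPM in In, against 364, 426 and 333 CPM in S. At day 7 it had 579, 748 and 477 CPM in inj, against 259.8, 385 and 269 CPM in Sham. In and S overlapped through In 2 and S 4, and inj lay above Sham in every library, with effects of -0.59 ± 0.27 and 0.98 ± 0.27 that pointed in opposite directions (adjusted p = 0.0135). Nptx1, a pentraxin of excitatory synapses, likewise stood at -0.54 ± 0.24 and 1.04 ± 0.24.

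The pan-neuronal and layer 5 lists held few calls, 0% and 12.5% of their tested members, where 13.4% of all genes passed. None of 16 pan-neuronal markers had a passing difference (medians -0.21 at day 30 and -0.17 at day 7; 1 passed without In 1 and 1 without In 2), and 2 of 16 layer 5 and corticospinal markers did (medians 0.03 and -0.07), 1 in each direction. Neither layer 5 marker passed without inj 4, and 1 did without In 3, S 2, S 4, inj 2, Sham 1 or Sham 1-RNA. Without In 1 and Sham 1-RNA together, 2 layer 5 markers were positive and 2 negative, and all medians turned, to -0.11 at day 30, 0.05 at day 7 and -0.11 for the difference, in place of 0.17. Scaling by library totals turns the median difference of both lists, to -0.16 in each. Mapt, which encodes the microtubule protein tau, had 463, 657 and 783 CPM in In, against 688, 1210 and 936 CPM in S, and 890.0, 913 and 969 CPM in inj, against 2088, 1259 and 1971 CPM in Sham. In overlapped S, and inj lay below Sham in every library, with effects of -0.57 ± 0.25 and -0.94 ± 0.25, the second of which passed, and a difference of 0.37 ± 0.35 (adjusted p = 0.526). Nefm, a neurofilament of large axons, had 22.1, 79.7 and 81.1 CPM in In, against 126, 85.8 and 103 CPM in S. The day 7 levels were 214, 252 and 145 CPM in inj, against 604, 393 and 659.9 CPM in Sham. Both pairs of groups lay apart, lower in In and in inj, with effects of -0.78 ± 0.37 and -1.44 ± 0.37. The difference of 0.66 ± 0.52 did not pass (adjusted p = 0.444) but did without In 1 (1.05, adjusted p = 0.0385).

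Receptors and channels held single large differences. Of 35 glutamate receptors and scaffolds, 3 were positive and 2 negative (14.3%, near the 13.4% of all genes). They were led by Grin2b, an NMDA receptor subunit (-0.33 ± 0.43 at day 30, -3.53 ± 0.46 at day 7). The count of 5 fell to 2 without S 2, inj 3 or Sham 1 and to 3 without S 1. Of 40 voltage-gated channels, 3 were positive and 6 negative (22.5%; 5 in all without inj 2, 18 without In 1 and Sham 1-RNA). Cacna1d, an L-type calcium channel, stood at -0.82 ± 0.39 and -4.24 ± 0.38, and Kcnq5, a potassium channel of the M-current, at -0.84 ± 0.25 and 0.96 ± 0.25. In Sham 1, Sham 1-RNA and Sham 3, Grin2b had 198, 626 and 144 CPM and Cacna1d 160, 548 and 224 CPM, so Sham 1-RNA was the highest in both. Across the alternatives other than the replicate block, their differences ran from 1.96 to 3.45 for Grin2b and from 2.73 to 3.80 for Cacna1d. Of 30 synaptic vesicle genes, 2 were positive and 1 negative (10%, below the 13.4% of all genes), and 6 in all passed without In 2. The negative one was Sv2b, a vesicle protein (-0.18 ± 0.21 and 1.35 ± 0.21). None of 13 GABA-A receptor subunits passed, in the full fit or without any 1 library.

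Glial genes other than those of microglia also parted. Of 15 astrocyte markers, 4 had a passing positive difference (26.7%, against 13.4% of all genes). Their medians were 0.36 at day 30 and -0.10 at day 7. Gfap, the intermediate filament of astrocytes, had 1525, 1273 and 1113 CPM in In, against 1313, 1276 and 1426 CPM in S. At day 7 it had 607, 467 and 691 CPM in inj, against 2990, 1972 and 2390 CPM in Sham. Every inj library lay below Sham, and In overlapped S, with effects of -0.04 ± 0.20 and -2.06 ± 0.21 (adjusted p = 0.000323). Slc4a4, a bicarbonate cotransporter, stood at 0.36 ± 0.24 and -1.52 ± 0.27, and S100b, a calcium-binding protein, at 0.48 ± 0.19 and -0.84 ± 0.19. Of 16 reactive astrocyte genes, 3 were negative (18.8%, against 13.4% of all genes). S1pr3, a lipid receptor, led them (0.38 ± 0.25 and 2.48 ± 0.30). The passing count was 6 without In 1, 5 without S 4 and 1 without Sham 1 or Sham 1-RNA. Of 10 markers of oligodendrocyte precursors, 4 were negative, among them Pdgfra, their growth factor receptor (0.04 ± 0.21 and 1.66 ± 0.23). With library totals as the scale the median of the astrocyte markers was 0.23 at day 7 and their median difference 0.03, in place of 0.35. Without In 1 and Sham 1-RNA these were 0.14 and 0.06, and 3 markers passed. None of 17 markers of mature oligodendrocytes and myelin passed (medians -0.31 at day 30 and -0.04 at day 7), but 5 did without In 1, 2 without In 3, and 7 positive and 1 negative without In 1 and Sham 1-RNA. The medians were then 0.06 at day 30 and -0.38 at day 7, and with library totals as the scale the day 7 median was 0.36. Mbp, myelin basic protein, had 14057, 72004 and 105110 CPM in In, against 63128, 76762 and 73029 CPM in S, and 47535, 46114 and 62247 CPM in inj, against 183460, 61196 and 169660 CPM in Sham. In 1 was far below the other In libraries, and Sham 1-RNA lay near the inj libraries, so both pairs of groups overlapped. The effects were -0.16 ± 0.53 and -1.41 ± 0.54, and the difference of 1.25 ± 0.75 did not pass (adjusted p = 0.295), though it did without In 1 (1.72, adjusted p = 0.0271) and without both (2.08, adjusted p = 6.4e-05).

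Some stress and protein quality genes also differed between days. Of 23 genes of the endoplasmic reticulum stress response, 8 were negative (5 without inj 2), led by Herpud1, a membrane protein of that response (-0.02 ± 0.23 and 2.26 ± 0.26). Hspa5, the chaperone BiP, had 219, 229 and 219.9 CPM in In, against 224, 174 and 197 CPM in S. At day 7 it had 284, 261 and 346 CPM in inj, against 172, 217 and 216 CPM in Sham. Every inj library lay above Sham, and In overlapped S, with effects of 0.16 ± 0.16 and 0.56 ± 0.16, the second of which passed, and a difference of -0.40 ± 0.23 (adjusted p = 0.269). Of 22 cytosolic heat shock chaperones, 1 was negative (4.55%, against 13.4% of all genes), and 4 passed without In 1 or S 4 and 2 without Sham 1-RNA. The negative one was the constitutive Hsc70 gene Hspa8 (-0.12 ± 0.14 and 0.53 ± 0.14, adjusted p = 0.0449). Its call ended without In 3, S 1, S 2, inj 2, inj 3 or inj 4, at adjusted p values up to 0.0967. The letters GAANNTTC, on either strand, occurred in the promoter windows of 11 of 18 listed chaperones (61.1%), against 5.55% of the tested genes with a window and 8.34% of all windows. Hsp90aa1, the inducible form of Hsp90, had 5, 25 and 31 counts in In, against 16, 5 and 74 in S, and 3854, 4319 and 5122 counts in inj, against 4900, 4948 and 4713 in Sham. At CPM levels that is 0.878, 3.39 and 5.28 CPM in In, against 1.30, 0.92 and 13.4 CPM in S, and 241, 237 and 275 CPM in inj, against 2136, 1944 and 1946 CPM in Sham. In overlapped S, and inj lay far below Sham. The effects were -0.58 ± 0.75 and -3.001 ± 0.58, the first from few counts, and the difference of 2.42 ± 0.94 did not pass (adjusted p = 0.107), and it did without S 4 (4.35, adjusted p = 0.000514).

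Most ribosomal and respiratory genes had small positive differences that did not pass. Of 73 cytosolic ribosomal protein genes, 71 had a positive difference (54.0% of all genes tested did), with medians of 0.18 at day 30 and -0.40 at day 7, and 2 passed. The passing count was 17 without Sham 1-RNA, 29 without In 1 and Sham 1-RNA, 4 without In 2, 0 without Sham 1, and 1 without In 3, S 1, S 2, S 4, inj 3 or Sham 3. The day 30 median was -0.06 without In 1 and Sham 1-RNA. None of 32 complex I subunits and none of 37 subunits of complexes II to V passed (1 did without inj 4 in the first list and without Sham 1-RNA in the second), with median differences of 0.37 and 0.34. With library totals as the scale these medians were 0.03 and -0.01, and 0.23 for the ribosomal genes. Without In 1 and Sham 1-RNA, 3 subunits of complexes II to V had a passing positive difference, and no complex I subunit passed. Of 30 proteasome subunits, 1 passed, Psmd1, a subunit of the regulatory particle (-0.21 ± 0.18 at day 30 and -1.82 ± 0.19 at day 7).

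The study's title links injury to long-term risk of neurodegeneration, and genes of those diseases were compared. Of 27 Alzheimer disease genes, 8 were negative and none positive (29.6%, against 13.4% of all genes), with medians of -0.03 at day 30 and 0.70 at day 7. When In 1 and Sham 1-RNA were left out, 9 were negative and 1 positive, and the day 30 median was 0.03. They included Aph1a, a subunit of gamma-secretase (-0.13 ± 0.14 and 1.102 ± 0.15), and the microglial genes Grn and Trem2 described above. App, the amyloid precursor, had 505, 984 and 1061 CPM in In, against 1069, 883 and 828 CPM in S. At day 7 it had 1099, 1119 and 859.8 CPM in inj, against 892, 725 and 1052 CPM in Sham. Both pairs of groups overlapped, with effects of -0.13 ± 0.25 and 0.21 ± 0.25 and a difference of -0.33 ± 0.35 (adjusted p = 0.571). Of 23 genes of amyotrophic lateral sclerosis, 2 passed, 1 in each direction (8.70%, below the share of all genes). The count was 5 without In 1, and 1 without In 3, S 2, S 4, inj 2, inj 3, inj 4, Sham 1 or Sham 3. Tardbp, a gene of that list that encodes TDP-43, had 101, 98.3 and 101 CPM in In, against 101, 96.1 and 86.2 CPM in S, and 89.8, 88.9 and 99.0 CPM in inj, against 122, 107 and 115 CPM in Sham. In overlapped S, and inj lay narrowly below Sham, with effects of 0.08 ± 0.13 and -0.31 ± 0.13 and a difference of 0.39 ± 0.18 (adjusted p = 0.18). Sod1, superoxide dismutase and another gene of that disease, had 285, 189.5 and 188 CPM in In, against 174, 135 and 152 CPM in S, and 178, 174 and 207 CPM in inj, against 223, 204 and 204 CPM in Sham. In lay above S in every library and inj overlapped Sham (0.52 ± 0.18 and -0.18 ± 0.18), and the difference of 0.70 ± 0.25 did not pass (adjusted p = 0.0809). For both genes it passed by limma-voom with sample weights (0.0458 and 0.0295).

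Only 76 of the 1522 passing genes had a larger estimate at day 30 than at day 7, 54 positive and 22 negative, and 72 of them had opposite signs at the 2 days. Serinc2, a serine incorporator family member, had 2.63, 3.52 and 4.43 CPM in In, against 12.9, 12.9 and 8.70 CPM in S. At day 7 it had 4.68, 5.65 and 6.29 CPM in inj, against 3.05, 2.36 and 3.72 CPM in Sham. In lay below S and inj above Sham, in every library (-1.70 ± 0.32 at day 30, 0.87 ± 0.37 at day 7, adjusted p = 0.00283). Tac1, the precursor of the peptide substance P, had 12, 6 and 21 counts in In, against 3, 3 and 1 in S, and 39, 38 and 27 counts in inj, against 20, 23 and 13 in the shallower Sham libraries. Its effects of 2.73 ± 0.71 and -1.95 ± 0.55 gave an adjusted p of 0.00311, and the day 30 value rests on 7 counts in S. Slc25a1, the mitochondrial citrate carrier, had 63.4, 54.5 and 60.7 CPM in In, against 42.1, 39.4 and 42.9 CPM in S, and 43.3, 39.6 and 43.9 CPM in inj, against 61.9, 52.6 and 66.9 CPM in Sham. In lay above S and inj below Sham, with effects of 0.52 ± 0.14 and -0.52 ± 0.15 (adjusted p = 0.00393). Slc24a4, a potassium-dependent sodium-calcium exchanger, stood at -1.11 ± 0.24 and 0.73 ± 0.29. Gtf2h5, a subunit of the transcription factor TFIIH, stood at 0.54 ± 0.16 and -0.51 ± 0.16, and Tfb1m, a mitochondrial ribosomal RNA methyltransferase, at 0.66 ± 0.22 and -0.64 ± 0.20. Neither of these last 2 passed with library totals as the scale (adjusted p = 0.0914 and 0.0687). Snapin, a SNARE-binding protein, stood at 0.44 ± 0.15 and -0.43 ± 0.15, and did not pass without In 3 (adjusted p = 0.0563), without Sham 1 (0.07) or with library totals (0.159). Trim6, a ubiquitin ligase gene, had 13, 5 and 0 counts in In, against none in S, and 1, 3 and 2 counts in inj, against 2, 5 and 5 in Sham, so no fold is given.

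**Figure D5:**
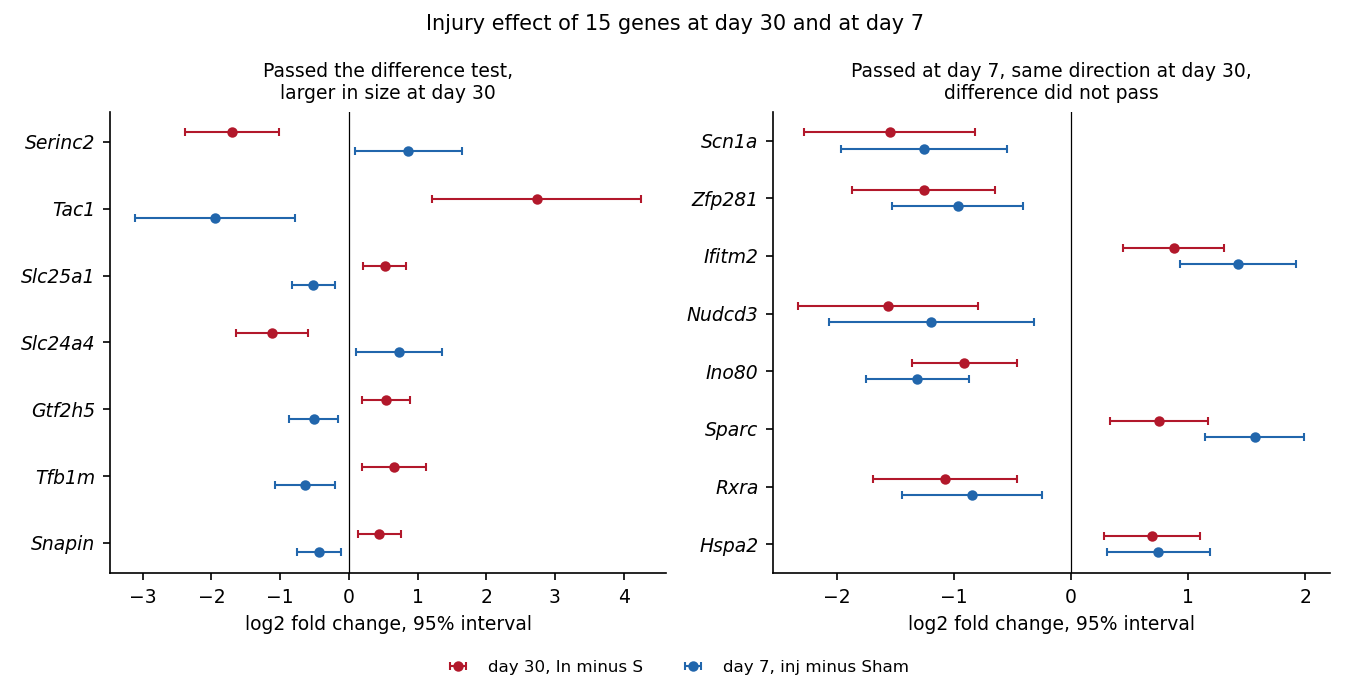
Effect of injury at day 30 and at day 7 (dots, log2 fold change with 95% intervals) for 7 genes whose difference passed and whose estimate was larger in size at day 30 (left) and for 8 genes that passed at day 7 and had the same direction at day 30 (right). On the left the 2 effects have opposite signs in every gene, and on the right the intervals of the 2 days overlap.

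A smaller set had estimates in the same direction at both days. Of the 3131 genes that passed at day 7, 286 had an unadjusted p below 0.05 at day 30. Of all 11396 genes tested, 1032 had such a p there, so the 2 shares were alike. Among them 162 had the same direction and no passing difference, 75 higher and 87 lower, and 77 had opposite directions. Scn1a, a sodium channel of interneurons, had 11.8, 7.59 and 17.9 CPM in In, against 24.2, 37.7 and 47.1 CPM in S. At day 7 it had 15.3, 25.9 and 11.98 CPM in inj, against 38.8, 42.4 and 45.8 CPM in Sham. In lay below S and inj below Sham in every library (-1.55 ± 0.34 at day 30, -1.26 ± 0.33 at day 7), with a difference of -0.29 ± 0.47 (adjusted p = 0.723). Ifitm2, an interferon-induced membrane protein, had 47.4, 40.1 and 41.6 CPM in In, against 31.3, 18.4 and 19.7 CPM in S, and 24.7, 26.3 and 27.9 CPM in inj, against 9.15, 9.43 and 10.7 CPM in Sham. It was higher in every In than S library and in every inj than Sham library (0.88 ± 0.20 and 1.43 ± 0.23). Zfp281, a zinc finger transcription factor, stood at -1.26 ± 0.28 and -0.97 ± 0.26. Nudcd3, a cochaperone of dynein, stood at -1.56 ± 0.36 and -1.19 ± 0.41, Ino80, a chromatin remodeller, at -0.91 ± 0.21 and -1.31 ± 0.20, and the retinoid receptor gene Rxra at -1.08 ± 0.29 and -0.84 ± 0.28. Hspa2, a testis and brain Hsp70, stood at 0.69 ± 0.19 and 0.75 ± 0.20. Sparc, a matrix protein of vessels and glia, stood at 0.75 ± 0.20 and 1.57 ± 0.20, and its difference of -0.82 ± 0.28 (adjusted p = 0.0637) did not pass here but did in 10 of 26 alternatives, among them without In 1 (adjusted p = 0.00341), without Sham 1-RNA (0.0389), by DESeq2, by limma-voom and with library totals, so its 2 effects are not alike under those settings. In all 8 the groups lay apart at both days, which only describes them, since they were chosen by their p at both days. None passed at day 30 on its own, and a p that misses the threshold does not show that the 2 effects are equal.

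The female libraries at day 30, which the comparison did not use, gave effects near 0 for the same genes. The genes that rose at day 7 had a female median of 0.00, with 50.9% positive, and those that fell had -0.01, with 51.4% negative. In females 9 of the 11396 genes passed, all higher (0.079%). Cldn5 stood at 0.02 ± 0.16 in females, Csf1r at -0.10 ± 0.19, Cntnap5b at 0.21 ± 0.28 and Srek1 at 0.02 ± 0.25. Of the genes larger at day 30 in males, Tac1 stood at -0.74 ± 0.51, Serinc2 at -0.55 ± 0.34 and Slc24a4 at 0.61 ± 0.27 in females. Scn1a stood at -0.25 ± 0.40 and Ifitm2 at -0.18 ± 0.18. Dusp1 and Ier2 stood higher, at 0.68 ± 0.29 and 0.56 ± 0.25. Whether male and female effects differed was not tested here.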

How the data were processed

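RNA was sequenced from motor cortex material of male rats at day 7 and day 30, which the series describes as enriched primary neurons. The authors deposited raw counts per gene, made per the submitters' processing notes with HISAT2, rn6 and edgeR. The versions, the counting tool and its strand setting are not given in the sources used here, so antisense and near-identical genes may share counts. The day 30 and day 7 tables are separate, were joined by gene symbol and gave 12397 shared genes. Any filter on the shorter day 7 table is not stated.

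From these counts, CPM, log2 fold changes and tests were computed here with edgeR 4.0.16 in R 4.3.3: TMM factors, filterByExpr (597 genes dropped), a robust quasi-likelihood fit of 4 group means over 12 libraries, and Benjamini-Hochberg adjustment over 11396 genes at 0.05. The script was tested on simulated data. CPM were scaled to the counts of the compared genes. Standard errors are the fold change over the root of F. Every adjusted p is from this fit unless another tool is named. Standard errors and intervals of effects include the spread between libraries, while the CPM value of 3 counts covers counting error only.

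The members, gene lists and tests were chosen with earlier results of these data known. Named genes were the 12 smallest p per direction, 8 larger at day 30, 8 alike at both days, up to 4 passing per list and fixed examples (Npy was among these and did not pass the filter), of which some are left out for length and 1 is not reported here. Genes with no count at day 30, contactins outside Cntnap5b and single genes in sentences on lists were named after their values were seen. Replicate numbers did not pair the libraries: deviations of same-numbered libraries correlated at 0.132, 0.0345 and -0.0381. All replicates differed by more than sampling noise, Sham 1 and Sham 1-RNA included, and were kept apart. Alternatives covered scaling, filters, DESeq2 1.42.0, limma-voom (limma 3.58.1), thinning, left-out libraries and a block. Figures were drawn with matplotlib 3.10.9. A promoter window was found for 80.2% of the genes with a positive and 74.9% of those with a negative difference, so GC content was not compared over these sets, and motif shares are over the genes with a window alone.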

Additional observations from a re-analysis of the deposited data

Results flagged for a closer look

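The injury effect of males differed between day 30 and day 7, by the edgeR test of the difference itself, in 617 genes with a positive and 905 with a negative sign. The log2 differences of the named genes that passed are given here, each as the day 30 effect minus the day 7 effect.

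Among vessel and barrier genes the differences were -3.01 for Cldn5, -2.94 for Bcam, -3.08 for Slc7a5, -3.16 for Pecam1, -2.88 for Flt1, -2.61 for Tie1, -2.85 for Itm2a, -2.999 for Podxl, -2.84 for Esam and -3.11 for Vwa1. They were -2.32 for Ahnak, -2.47 for Lsr, -2.23 for Pdgfrb, -2.43 for Rgs5, -2.998 for Notch3, -2.35 for Cspg4, -2.65 for Slc2a1, -2.67 for Abcb1a, -2.43 for Col4a1, -2.04 for Fn1 and -2.45 for Mmp2. In each, Sham was the lowest of the 4 groups.

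Among genes of microglia, lysosomes, cytokines and disease they were -2.32 for Csf1r, -1.98 for C1qa, -2.22 for C1qb, -2.88 for Selplg, -3.20 for Tmem119, -1.67 for Trem2, -1.67 for Ctsd, -2.23 for Ctsz, -1.90 for Grn, -1.23 for Aph1a and -1.95 for Tlr2. Ccl3 gave -4.64, a value that rests on few counts. Among immediate early and stress genes they were -1.54 for Fos, -1.40 for Junb, -2.22 for Dusp1, -1.59 for Ier2, -2.28 for Herpud1 and -0.65 for Hspa8.

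Among genes that fell at day 7 they were 6.02 for Cntnap5b, 5.22 for Srek1, 4.67 for Srsf11, 4.86 for Luc7l3, 4.26 for Rbm25, 5.88 for Taf1d, 2.97 for Dync1i2, 3.02 for Fam133b, 3.51 for Ppp1r12a, 2.72 for Baz2b, 3.38 for Phf20l1 and 3.15 for Ccar1. Neuronal and glial genes gave 1.33 for Gad1, 1.63 for Sst, 2.79 for Vip, 1.64 for Foxp1, 3.21 for Grin2b, 3.43 for Cacna1d, 2.02 for Gfap, 1.88 for Slc4a4 and 1.32 for S100b. The proteasome gene Psmd1 gave 1.61. In the other direction they gave -1.57 for Slc17a7, -1.58 for Nptx1, -1.81 for Kcnq5, -1.53 for Sv2b, -2.10 for S1pr3 and -1.62 for Pdgfra.

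Among genes with the larger estimate at day 30 they were -2.57 for Serinc2, 4.68 for Tac1, 1.04 for Slc25a1, -1.84 for Slc24a4, 1.05 for Gtf2h5, 1.30 for Tfb1m and 0.87 for Snapin. Trim6 gave 9.77, which depends on the prior count since all S libraries held 0 counts, and is no bound.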

How the results depend on the processing

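Of 75 named genes past the test, 69 passed under every alternative other than the replicate block. Genes with a difference numbered 2610 by limma-voom, 2362 with separate fits per day, 2392 without Sham 1-RNA and In 1, and 1016 to 2067 with single libraries left out. Positive ones numbered 263 with library totals, 1328 by limma-voom, 1200 without Sham 1-RNA and In 1, and 328 to 965 with single libraries left out. Negative ones numbered 1583 with library totals and 1518 with separate fits. Genes with a day 7 effect numbered 5028 by limma-voom. Genes with a day 30 effect numbered 12 by DESeq2, 1 without In 1 and S 2, and 0 to 1 with single libraries left out. The replicate block left 0 differences in either direction (1209 at an unadjusted p below 0.05) and 1 day 7 effect. At day 7 only inj 3 and Sham 3 share a number across groups, and at day 30 In 1 with S 1 and In 2 with S 2. Each effect of that fit rests on few libraries, so its loss of calls cannot be read as a result about the genes. No source says that the numbers pair the libraries. The cause of the other changes was not tested.

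The middle 50% of day 30 effects spanned 0.355 by limma-voom, 0.595 with the replicate block, 0.335 without In 1 and S 2, 0.3675 without Sham 1-RNA and In 1, and 0.368 to 0.578 with single libraries left out. The interquartile range of the day 7 effects was 0.911 by limma-voom, 0.912 with no filter, 1.003 with the replicate block, 0.955 without Sham 1-RNA and In 1, 0.757 with at least 10 counts in every library, and 0.880 to 0.955 with single libraries left out. The rho between the effects was 0.0828 by limma-voom, 0.0784 with the replicate block, 0.0591 without In 1 and S 2, 0.0389 without Sham 1-RNA and In 1, 0.192 with at least 10 counts, and 0.0583 to 0.191 with single libraries left out.

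Signs turned only in genes whose difference did not pass. Nudcd3 was 0.050 by limma-voom and 0.17 without In 1 and S 2. Hspa2 was 0.036 by limma-voom and 0.15 with the replicate block, and -0.24 to 0.054 with single libraries left out. Apoe was -0.20 with library totals, -0.25 by limma-voom, -0.39 without In 1 and S 2, -0.36 without Sham 1-RNA and In 1, and -0.29 to 0.24 with single libraries left out. App was 0.059 without Sham 1-RNA and In 1, and Mapt -0.0060 with library totals. Scn1a ran over -0.76 to 0.079 with single libraries left out. The shallow Sham libraries limit what can be seen of genes at a few CPM.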

Other observations

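Other groups were described by their counts, against 13.4% of all genes tested. Of 18 perineuronal net and matrix genes, 5 had a passing negative difference, with medians of -0.19 at day 30 and 0.63 at day 7, among them Mmp2, a gelatinase (-0.15 ± 0.24 at day 30 and 2.30 ± 0.30 at day 7). Of 11 striatal neuron markers, 4 were positive and 1 negative (3 in all without Sham 1), among them Foxp1, a forkhead transcription factor (-0.14 ± 0.16 and -1.78 ± 0.16). Foxp1 had 79.9, 74.4 and 77.4 CPM in In, against 77.1, 90.6 and 88.8 CPM in S, and 29.7, 31.4 and 29.6 CPM in inj, against 94.6, 130.4 and 87.1 CPM in Sham, so that inj was the group that stood apart. Of 12 fibroblast and meningeal markers, 1 was positive and 2 negative (5 in all without In 1, and 1 without inj 2 or inj 3). Without In 1 and Sham 1-RNA, none of them was positive and 6 were negative.

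Of 21 cholesterol synthesis genes, 1 was positive and 1 negative (4 in all without S 4, and 1 without In 3, S 2, inj 2, Sham 1 or Sham 3), and of 22 axonal transport motors 2 were positive (5 in all without In 1, and 1 without In 2, In 3, S 1, S 4, inj 2 or Sham 3). Without In 1 and Sham 1-RNA, 4 cholesterol genes were positive and 2 negative, and 7 transport motors were positive and 2 negative. None of 23 antioxidant genes passed by edgeR (2 did without S 4), and none of 18 glucocorticoid response genes did, in the full fit or without any 1 library. None of 7 choroid plexus, 7 ependymal or 6 blood cell markers passed. Of 19 axon regeneration genes, 1 was negative (2 without In 1, In 2, S 1, S 4 or Sham 3, and 4 without In 1 and Sham 1-RNA together).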
